A study of Homo sapiens with 22 samples.

Results

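Early RNA loss was followed in HCT116 cells, an established human colorectal cancer cell line, over the first 2 h of exposure to actinomycin D. The comparison was made up of 6 of the 22 libraries of a series on Staufen1 and FOXA1 mRNA: those that the labels give as HCT116 total RNA at 0 h (n = 3) and at 2 h (n = 3), and all genes were compared between them. Every library of both groups carries the same dose in its labels, 5 µg/ml actinomycin D, but the titles name the drug only at 2 h. The groups thus differ in exposure to the drug as well as in time. No HCT116 group of the series is labelled as 2 h without the drug. No gene was deleted or silenced in either group. HCT116 libraries at 4 h (n = 3) and LS180 libraries at 0 and 2 h (n = 3 each), from a mucin-producing colorectal cancer line under the same dose, are used below only for single comparisons. Whether numbered replicates came from separate cultures is not stated in the labels. Each p-value therefore reflects variation among the libraries sequenced, which may be technical.

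Actinomycin D inserts into DNA and stops RNA polymerases, so that new transcripts are no longer made and existing ones decay at their own rates. Messages for transcription factors, signalling inhibitors and other proteins needed briefly are known to turn over fast, often through AU-rich stretches in the 3′ untranslated region (UTR) that proteins such as ZFP36 bind to recruit deadenylases. Replication-dependent histone messages carry no poly(A) tail and end in a stem-loop, and their decay is tied to the stop of DNA synthesis. Messages for ribosomes, respiration and other housekeeping tasks are known to be long-lived. Because library depth is fixed, levels are relative to the RNA that remains: when unstable messages leave, stable ones take a larger share, and fewer cells or less RNA per cell cannot be told apart from these values.

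Short sequences of both kinds are shown here because the histone and AU-rich groups recur in the results. They were read from GENCODE release 29 transcripts on GRCh38, whereas the counts were made on hg19. The first set holds the core of the histone stem-loop in capitals, searched on the sense strand of the 3′ UTR with any base allowed at the ninth capital. HIST2H2BE is at chr1:149886182-149886205 on the minus strand, HIST1H2AC at chr6:26124667-26124690 on the plus strand and HIST3H2A at chr1:228457363-228457386 on the minus strand.
HIST2H2BE: aaggctCTTTTCAGAGCCacccac
HIST1H2AC: aaggctCTTTTCAGAGCCccccta
HIST3H2A: aaggctCTTTTCAGAGCCacctac
These 3 genes, which encode core histones H2B and H2A, were at 313, 360 and 67.4 CPM (counts per 1000000 after scaling, mean of n = 3) at 0 h and at 10.2, 26.0 and 5.78 CPM at 2 h. The core letters stood in the 3′ UTR of 32 of 13724 matched transcripts, or 0.233%, of which 15 were histone genes. Transcripts with no annotated 3′ UTR are among the 13724 and count as lacking the letters. Only 21 of the 30 matched histone genes had an annotated 3′ UTR. For HIST2H2BE, HIST1H2AC and HIST3H2A it is 1801, 1173 and 446 bases long. The printed stretch starts at its base 55, 42 and 39. These 3 transcript models therefore run on past the stem-loop rather than ending in it.

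The second set shows the AU-rich nonamer TTATTTATT in capitals, in genes that fell and in genes that did not. LIF is at chr22:30240963-30240981 (minus strand), DUSP1 at chr5:172768648-172768666 (minus), ZFP36L2 at chr2:43223453-43223471 (minus) and GDF15 at chr19:18389059-18389077 (plus). RPL14 is at chr3:40462914-40462932 (plus) and ITGB1 at chr10:32900414-32900432 (minus). All of these stretches lie in the 3′ UTR.
LIF: ggcccTTATTTATTattta
DUSP1: ggtccTTATTTATTtaact
ZFP36L2: ttaacTTATTTATTatctt
GDF15: gtctgTTATTTATTattaa
RPL14: ttattTTATTTATTtattt
ITGB1: tgaagTTATTTATTaaata
LIF, a cytokine, fell from 19.1 to 2.93 CPM on average and GDF15, a stress-induced secreted factor, from 106 to 16.4 CPM. RPL14, a ribosomal protein, was at 608 to 620 CPM at 0 h and 719.5 to 724 CPM at 2 h. ITGB1, the integrin beta 1 subunit, was at 548 to 558 and then 631 to 676 CPM. The transcripts used for both carry the same 9 letters. That of RPL14 has a 3′ UTR of 6355 bases, and its printed stretch starts at base 682. The median over the ribosomal protein list is 92 bases. Whether the RPL14 messages counted here hold the letters was not tested. Both genes were higher at 2 h, with a log2 fold change of 0.24 each (adjusted p = 0.0145 for RPL14 and 0.0124 for ITGB1). Under ribosomal protein scaling both were at 0.01, and without both libraries numbered 1 the adjusted p was 0.0626 and 0.0835. The nonamer was present in the 3′ UTR of 1126 of the 13724 transcripts, 8.21%, and in 0 of those of histone genes.

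The HCT116 libraries held 47.8 to 60.9 M counts at 0 h and 53.7 to 55.0 M at 2 h, where M is 1000000. Short noncoding RNAs took 16.8 to 18.6% of counts. Libraries numbered 1 stood apart at both times: the SD of log2 differences to the other 2 libraries was 0.185 to 0.199, against 0.0965 at 0 h and 0.0936 at 2 h between libraries numbered 2 and 3. The labels name no batch for this. Of 19 epithelial and colorectal markers, CDX1 and CEACAM5 were at 0 counts in the 0 h libraries and 6 averaged under 0.1 CPM, while their sum was 4537 to 4803 CPM. The 14 immune, 8 endothelial and 10 fibroblast markers summed to 1.07 to 1.91, 0.434 to 0.695 and 1.62 to 2.22 CPM. Goblet and secretory markers summed to 4.39 to 5.87 CPM, against 1236 to 1349 in LS180.

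At 2 h, 2957 of 17256 genes tested were lower than at 0 h (17.1%) and 2389 were higher (13.8%), by edgeR's quasi-likelihood test at an adjusted p under 0.05. The falls were large and the rises small. The median log2 fold change was −0.70 among genes called lower and 0.23 among genes called higher. At least 2-fold changes numbered 957 downwards (5.55%) and 47 upwards (0.272%). Of the genes that fell, 276 fell at least 4-fold and 55 at least 16-fold, and 29 of the latter were replication-dependent histone genes. The rises rested on the scaling: with libraries scaled to ribosomal protein genes, which shifted all genes by −0.23 on the log2 scale, 33 genes were higher (0.191%) and 3951 lower (22.9%), and with total library size 685 were higher and 2670 lower. Of the 2957 falls, 2956 were also called lower under ribosomal scaling, but its downward shift could hardly lose a fall, so this overlap is no test of them. Without both libraries numbered 1, 1411 genes were higher and 2337 lower, of which 1319 and 2283 were among the calls above. Leaving out the 2 h library numbered 2 or 3 gave 1052 or 1032 genes higher. Of the gene lists described below, ribosomal scaling left rises only among ribosomal protein genes (1) and mitochondrially encoded messages (3). Without both libraries numbered 1, rises numbered 1 in the MYC network, 1 in the BCL2 family, 3 among glycolysis and hypoxia genes, 1 among cholesterol genes, 1 among snoRNA host genes and 2 among deadenylation, decapping and exosome genes, and 0 in the NF-kB, BMP, p53 and stress lists.

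**Figure D1:**
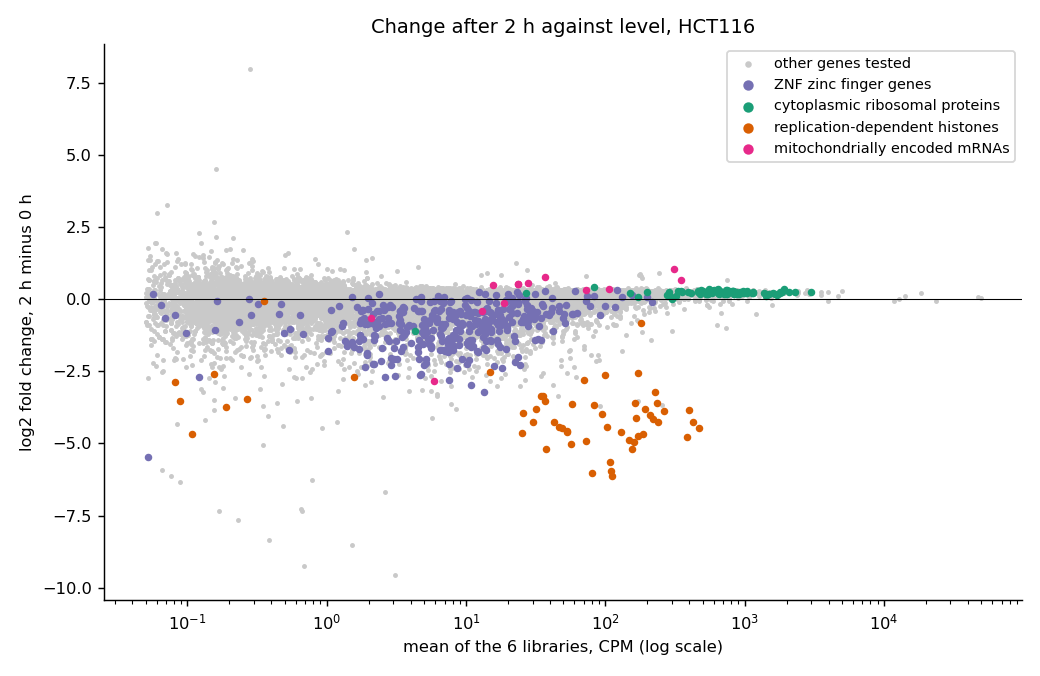
Log2 fold change from 0 h to 2 h (y axis) against the mean level of each gene over the 6 libraries in CPM (x axis, log scale). Each point is a gene averaging over 0.05 CPM, coloured for 4 gene lists: histone genes lie lowest, with a median of −3.93, ZNF genes spread below 0, and ribosomal protein genes lie just above 0 with a median of 0.23, which is −0.00059 under ribosomal scaling.

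Replication-dependent histone messages were lost most. Of 62 such genes tested, 53 fell, 0 rose and 9 did not pass the test, with a median log2 fold change of −3.93, against 0.01 over all genes tested. Their summed level went from 10510, 12510 and 13260 CPM at 0 h to 1020, 607 and 843 CPM at 2 h, so the groups did not overlap. HIST1H3J, a histone H3 gene, was at 192, 224 and 245 CPM at 0 h and at 4.39, 1.92 and 3.04 CPM at 2 h. All its 2 h libraries lay far below every 0 h library, and 1.42% of the starting level was left (log2 fold change −6.14, SE 0.20, adjusted p = 1.44e-13). HIST1H2BJ, for histone H2B, was at 147, 159 and 170 CPM and then 3.19, 1.60 and 2.48 CPM (−6.03, adjusted p = 1.06e-12). HIST2H2AC, for histone H2A, showed little spread at 0 h (140, 142 and 142 CPM) and was at 6.11, 3.39 and 4.51 CPM at 2 h. HIST2H2BE, whose stem-loop is printed above, fell to 3.25% of its level. HIST1H2AC and HIST3H2A kept 7.21% and 8.58%. The libraries numbered 1 kept the highest histone levels at 2 h in each of these genes.

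Histone copies are near-identical and share reads in RSEM's expected counts, so single copies are uncertain. HIST2H3A shows it: its counts at 2 h were 0, 590 and 0, beside 2965, 590 and 2024 for its copy HIST2H3C, so that whole amounts moved between the copies. The list of replacement histones, most of which are made outside S phase from polyadenylated messages, behaved otherwise. Of 10 tested, 1 fell (10%) and 3 rose (30%), against 17.1% and 13.8% of all genes. Their median was 0.17, −0.06 under ribosomal scaling. The gene that fell was H2AFX, the variant marked at DNA breaks, which went from a mean of 145 to 95.5 CPM (log2 fold change −0.60, adjusted p = 3.48e-05).

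Early response genes, which growth factors and stress switch on within minutes, came next. Of 18 tested, 17 fell and 0 rose, with a median of −2.02. IER3, an early response gene tied to ERK signalling, was at 156, 176 and 174 CPM at 0 h and 13.7, 12.5 and 12.4 CPM at 2 h, a narrow spread at either time, and 7.64% was left. The pseudokinase gene TRIB1 went from 325, 310 and 307 CPM to 29.5, 25.6 and 26.2 CPM (−3.54, SE 0.11, adjusted p = 9.4e-14). IER2 kept 16.9% (adjusted p = 8.85e-14). Among AP-1 and ATF transcription factors, 10 of 12 fell and 0 rose. JUN, the founding AP-1 subunit, was at 32.2, 23.1 and 23.3 CPM and then 4.77, 3.02 and 3.25 CPM, and its relative JUNB kept 14.2%. MAFG, a small Maf partner, kept more, 28.4%.

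The KLF and SP list and the MYC network held deep falls beside genes that did not pass the test. Of 15 KLF and SP genes, 10 fell and 0 rose, with KLF6 at 15.9%, KLF4 at 20.1% and KLF10 at 28.8% of their 0 h means. MYC, the growth regulator whose message is a classic example of fast turnover, stood at 493, 449 and 468 CPM at 0 h. At 2 h it was at 37.4, 38.0 and 34.8 CPM, 7.82% of the start (log2 fold change −3.68, SE 0.11, adjusted p = 6e-14). A further fall followed to 14.3 ± 2.81 CPM (SD, n = 3) at 4 h (−1.36 against 2 h, adjusted p = 1.81e-07). Its network as a whole showed 3 of 12 genes lower (25%) and 2 higher (16.7%), against 17.1% and 13.8% of all genes. MXD1, an antagonist of MYC, kept 36.8%, whereas MAX, the partner of both, was at 36.5, 39.0 and 36.6 and then 42.0, 41.5 and 42.4 CPM (0.17, adjusted p = 0.0112, and −0.06 under ribosomal scaling). Without both libraries numbered 1 the adjusted p for MAX was 0.0721.

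**Figure D2:**
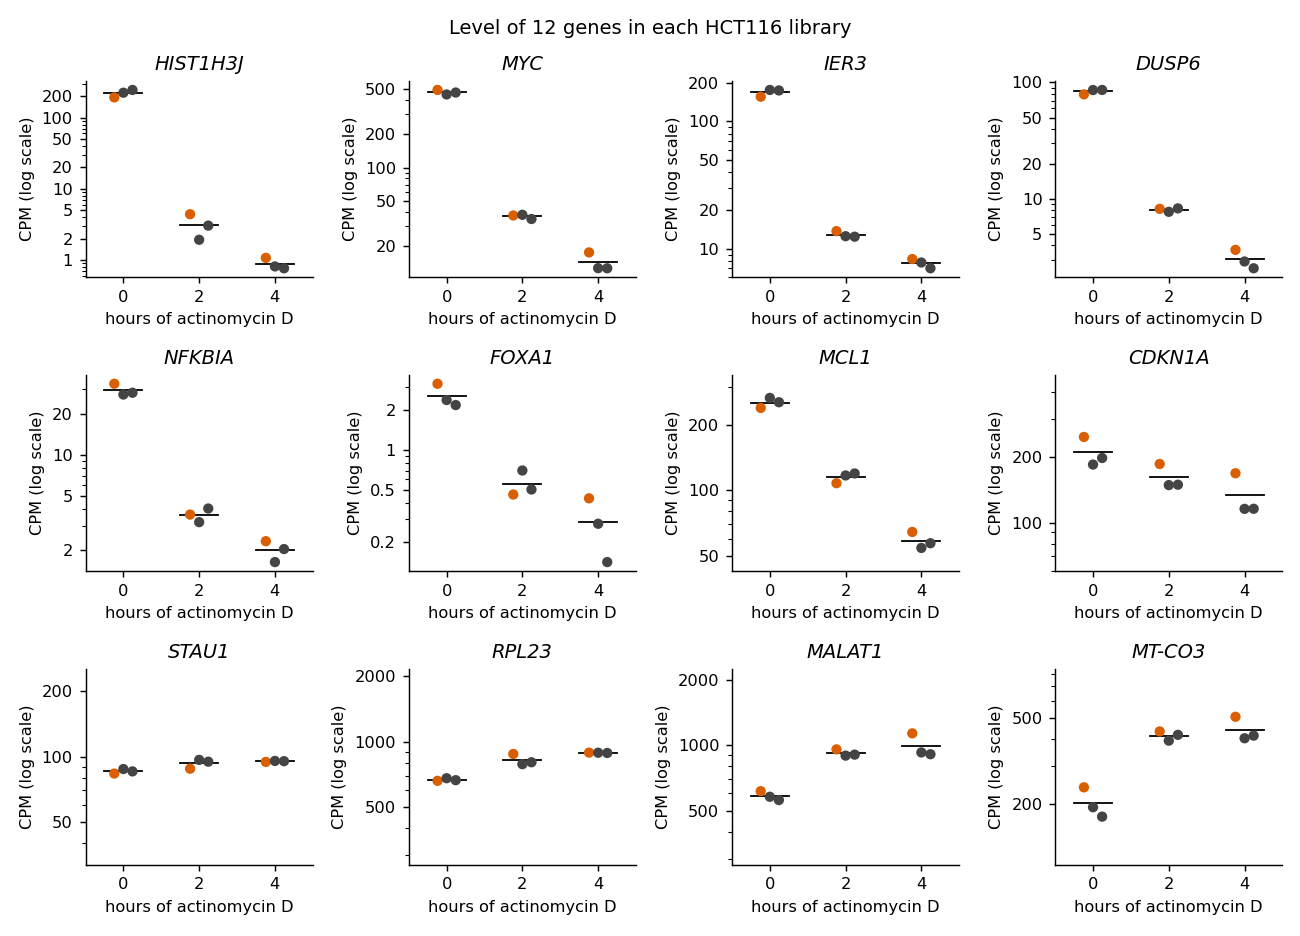
Levels of selected genes in each HCT116 library in CPM (y axis, log scale) at 0, 2 and 4 h of actinomycin D (x axis); points are libraries, those numbered 1 in orange, and lines are means of n = 3. MYC falls from 449 to 493 CPM to 34.8 to 38.0 CPM, while STAU1 stays between 83.8 and 96.8 CPM at these 2 times.

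Inhibitors that close signalling loops were mostly lower, to varying depth. All 14 ERK feedback genes tested fell, 9 of them at least 2-fold. Their median was −1.27 and their smallest change −0.37. DUSP6, a phosphatase that inactivates ERK, went from 79.1, 86.1 and 86.3 CPM to 8.22, 7.76 and 8.30 CPM, with 9.66% left. DUSP2 kept 7.21% and DUSP1 11.3%, and both are MAP kinase phosphatases. DUSP1 was low throughout, at 8.25 to 8.93 CPM and then 0.939 to 1.01 CPM. SPRY4, a Sprouty inhibitor of receptor tyrosine kinase signalling, kept 16.4% (adjusted p = 9.75e-13). Without both libraries numbered 1, 12 of the 14 were called.

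Of 12 inhibitors of cytokine signalling, 10 fell, 5 of them at least 2-fold, and 0 rose. SOCS3, which blocks JAK kinases, was at 11.1, 10.7 and 10.6 CPM at 0 h and 0.815, 0.413 and 0.647 CPM at 2 h, with 5.81% left, less than for any other non-histone gene named here (log2 fold change −4.11, SE 0.27, adjusted p = 6.8e-10). CISH, a relative, kept 19.7%, and PIM3, a kinase gene in the same list, 23.0%. In the NF-kB list 13 of 22 fell and 1 rose. NFKBIA, the inhibitor that NF-kB itself induces, went from 33.0, 27.5 and 28.4 CPM to 3.65, 3.21 and 4.04 CPM (12.3% left). LIF kept 15.4% and the factor IRF1 23.7%. The riser was NFKB1, a subunit of NF-kB, at 69.0 to 72.6 and then 74.8 to 82.6 CPM (0.17, adjusted p = 0.0367), which was −0.05 under ribosomal scaling and had an adjusted p of 0.0534 without both libraries numbered 1.

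Lists of developmental pathways held deep falls beside members that did not pass the test. In the list of BMP, SMAD and ID genes 13 of 22 fell and 1 rose. SMAD7, an inhibitor of TGF-beta receptors, fell from 5.54, 3.81 and 4.54 CPM to 0.443, 0.431 and 0.449 CPM, and BAMBI, a decoy receptor, kept 11.1%. The ligand gene BMP4 kept 20.3% of a higher level, 88.2, 77.6 and 74.1 CPM. SMAD5, which carries the BMP signal to the nucleus, was the riser, with 0.14 (adjusted p = 0.0493), −0.09 under ribosomal scaling and an adjusted p of 0.148 without both libraries numbered 1. Of 20 Wnt genes, 9 fell, MYC (above) the deepest. AXIN2, a feedback inhibitor, fell to 17.6%, DKK1, a secreted inhibitor, from 152, 136 and 133 CPM to 34.9, 29.7 and 30.7 CPM, and RNF43, which removes Frizzled receptors, to 35.8%. Of 13 Notch genes 7 fell, with HES1, the main target repressor, at 15.9% and the ligand JAG1 at 55.5%. HBEGF, an EGF receptor ligand, kept 20.6% in a list where 9 of 21 fell, and CYR61, a target of YAP, kept 22.8% in a list where 5 of 12 fell.

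FOXA1, the pioneer factor that the series is about, was scarce in HCT116, at 3.17, 2.39 and 2.19 CPM at 0 h, against a mean of 38.6 CPM in LS180. At 2 h its libraries were at 0.461, 0.700 and 0.503 CPM, all below those at 0 h, with 21.3% left (log2 fold change −2.23, SE 0.23, adjusted p = 3.82e-07). LS180 gave −2.17, and the difference between the lines did not pass the test. FOXA3 was at 4.55, 3.35 and 3.19 CPM and then 1.81, 1.31 and 1.58 CPM (−1.24, adjusted p = 5.66e-05). FOXA2 had 6, 1 and 1 counts at 0 h and 0 in each library at 2 h, too few for a fold. In the list of FOXA and intestinal transcription factors, 11 of 16 fell and 0 rose. ELF3, an epithelial factor, kept 39.9%, SOX9, a crypt factor, 48.6% and CDX2, the intestinal homeobox factor, 62.6%. STAU1, the RNA-binding protein Staufen1, was at 83.8, 87.8 and 85.7 and then 88.2, 96.8 and 95 CPM and did not pass the test (0.12, SE 0.052, adjusted p = 0.0873, −0.10 under ribosomal scaling). It was called higher under 4 of 18 alternatives, with a lowest adjusted p of 0.0261. Its paralog STAU2 was higher by 0.17 (adjusted p = 0.0491), −0.06 under ribosomal scaling. STAU2 kept this call under 7 of 18 alternatives, lost it under 10 and changed direction under 1.

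Lists of cell death and cell cycle genes held deep falls beside many members that did not pass the test. Among p53 targets 14 of 29 fell and 1 rose. GDF15 was at 128, 93.9 and 96.3 and then 22.2, 14 and 13 CPM, and the kinase gene PLK3 kept 35.3%. CDKN1A, the p21 inhibitor of cyclin-dependent kinases, lost far less: 248, 185 and 198 CPM at 0 h against 186, 149 and 149 CPM at 2 h, overlapping groups. Its log2 fold change of −0.38 (SE 0.13, adjusted p = 0.0347) had an adjusted p of 0.0641 without both libraries numbered 1, 0.189 and a log2 fold change of −0.25 without the 0 h library numbered 1, and 0.0934 or 0.0921 without the 2 h library numbered 2 or 3. Of 17 BCL2 family genes 6 fell (35.3%) and 2 rose (11.8%), against 17.1% and 13.8% of all genes. MCL1, the short-lived survival protein, went from 240, 266 and 254 CPM to 108, 117 and 120 CPM, while death-promoting BCL2L11 kept 28.3% and BBC3 47.0%. BID, also death-promoting, was at 51.8 to 52.9 and then 60.9 to 63.0 CPM (0.24, adjusted p = 0.00935, 0.02 under ribosomal scaling). CDKN1B, the p27 inhibitor, kept 26.6% and the cyclin gene CCNL1 25.4% in a list where 4 of 17 fell (23.5%, against 17.1% of all genes).

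Of 29 S phase genes, 5 fell (17.2%) and 4 rose (13.8%), shares close to those over all genes (17.1% and 13.8%). Of 25 mitotic genes 1 fell and 0 rose. E2F2, an activator of S phase genes, fell to 24.9%, and CDT1, which licenses replication origins, from 73.7, 84.8 and 89.7 CPM to 54.2, 61.6 and 63.2 CPM.

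Of the 22 genes of the integrated stress and unfolded protein response, 15 fell and 1 rose. DDIT4, an inhibitor of mTORC1, was at 58.1, 81.8 and 84.2 CPM and then 6.89, 10.8 and 10.9 CPM, lowest in the library numbered 1 at both times. PPP1R15A, which restarts translation after stress, kept 27.3%. ATF6, a sensor of unfolded proteins, was at 0.17 (adjusted p = 0.0101, −0.06 under ribosomal scaling, and 0.0536 as adjusted p without both libraries numbered 1). Metabolic lists were mixed. ADM, the vasoactive peptide adrenomedullin, kept 19.1% where 7 of 29 glycolysis and hypoxia genes fell (24.1%) and 8 rose (27.6%). Of 26 cholesterol synthesis genes 5 fell and 5 rose (19.2% each). Over all genes the shares were 17.1% and 13.8%. CLK1, a kinase of splicing factors, kept 29%, and the clock repressor BHLHE40 23.5%.

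Some messages for proteins that act in RNA decay fell, while the lists they belong to had medians near 0. Of 15 AU-rich element binding proteins, 6 fell (40%) and 2 rose (13.3%), against 17.1% and 13.8% of all genes, with a median of −0.03. ZFP36 was at 7.38, 5.99 and 6.31 and then 1.15, 1.27 and 1.29 CPM, ZFP36L1 kept 24.7% and ZFP36L2 22.2%. ZC3H12A, an endonuclease that cleaves inflammatory messages, kept 15.5% (adjusted p = 2.19e-11). Of 40 deadenylation, decapping and exosome genes, 9 fell (22.5%) and 5 rose (12.5%), with a median of 0.06. These shares were near those over all genes, 17.1% and 13.8%. BTG1, a recruiter of the deadenylase, was at 39.4%. Of 17 nonsense-mediated decay factors 2 fell (11.8%) and 4 rose (23.5%), with a median of 0.05.

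ZNF genes, which mostly encode DNA-binding zinc finger proteins, many of them repressors, formed the largest list to fall. Of 432 tested 296 fell and 5 rose, with a median of −0.71. Fold changes of at least 2 downwards were called for 139 of them. ZNF627 was at 24.6, 24.2 and 23.8 CPM and then 2.39, 2.93 and 2.46 CPM, a tight pair of groups. ZNF14 kept 14.4% and ZNF57 19.3%. Without both libraries numbered 1, 272 of the list fell.

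**Figure D3:**
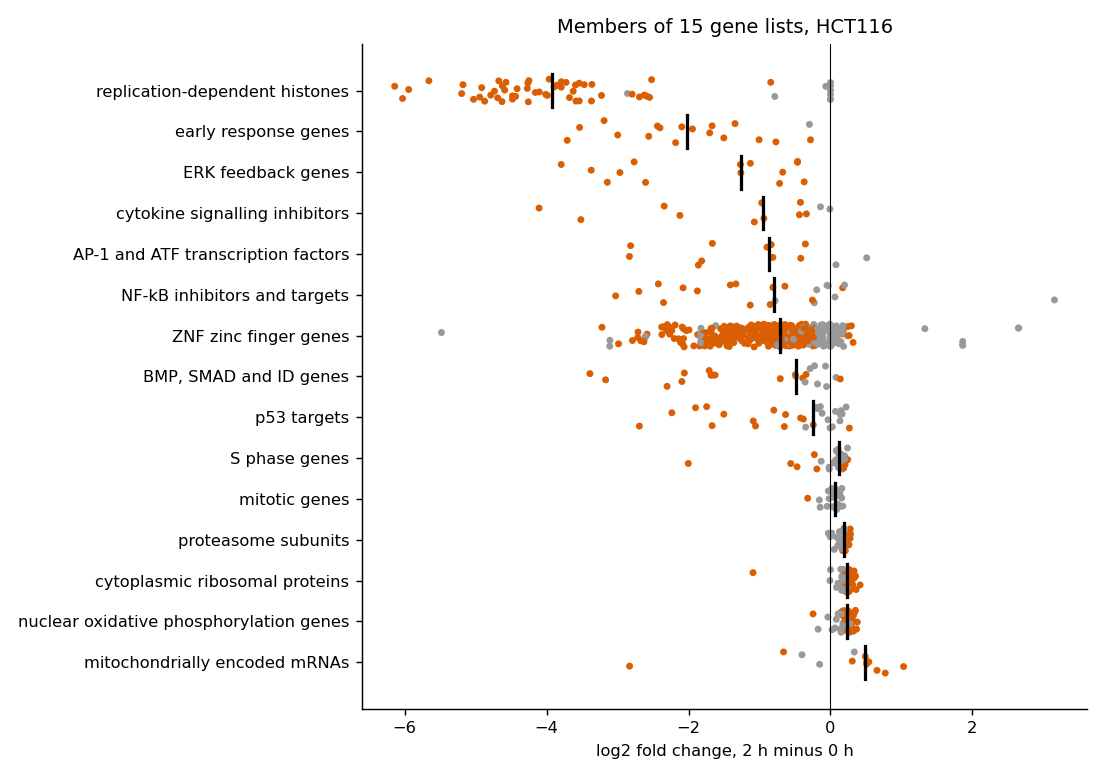
Log2 fold change from 0 h to 2 h (x axis) of the members of 15 gene lists (rows); each point is a gene, orange where the adjusted p was under 0.05 and grey otherwise, and black bars are medians. The medians run from −3.93 for replication-dependent histones to 0.49 for mitochondrially encoded mRNAs; under ribosomal scaling, those of the ribosomal protein, S phase, mitotic and proteasome lists are −0.00059, −0.11, −0.16 and −0.04.

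The long-lived lists lay close together just above 0. Of 84 ribosomal protein genes 50 rose and 1 fell, with a median of 0.23, and of 80 nuclear genes of oxidative phosphorylation 52 rose and 1 fell, with the same median. Proteasome subunits (17 of 36, 47.2%), translation factors (16 of 33, 48.5%) and transfer RNA synthetases (7 of 18, 38.9%) also held rises. Over all genes tested 13.8% rose. In the highest of 5 equal classes of level at 0 h, 37.4% rose, with a median of 0.14, so rises were common among abundant genes. Scaling to ribosomal protein genes sets their own change near 0 by construction. Under it 1 ribosomal protein gene and 0 of the oxidative phosphorylation, proteasome, translation and synthetase genes were higher, and without both libraries numbered 1 the ribosomal, oxidative phosphorylation, proteasome and translation counts were 19, 12, 5 and 12. RPL23, of the large subunit, was at 662, 680 and 666 and then 880, 790 and 806 CPM (0.30, adjusted p = 0.0012, 0.07 under ribosomal scaling). UQCRB, of respiratory complex III, was at 208, 220 and 195 and then 276, 266 and 264 CPM (0.37, 0.14 under ribosomal scaling). PSMA4 of the proteasome, the synthetase gene NARS and the initiation factor gene EIF3H had 0.28, 0.31 and 0.31, and 0.06, 0.08 and 0.08 under ribosomal scaling. For PSMA4 the adjusted p without both libraries numbered 1 was 0.0536.

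EIF5 stood against its list. This initiation factor gene fell from 321, 330 and 315 CPM to 245, 222 and 224 CPM (−0.48, adjusted p = 5.86e-07) while 16 other translation factors did not pass the test. Of 18 heat shock and ubiquitin genes 11 rose (61.1%) and 3 fell (16.7%), against 13.8% and 17.1% of all genes. The chaperone gene DNAJB4 rose from 28.2, 22.7 and 20.7 to 35.5, 31.7 and 32.5 CPM (0.48), the collagen hydroxylase gene P4HA2 from 27.3 to 28.9 up to 36.4 to 39.1 CPM (0.43) and the ribosomal protein relative RPS27L from 62.4 to 81.8 up to 88.0 to 108 CPM (0.42). These 3 had 0.25, 0.20 and 0.19 under ribosomal scaling, where none of them passed the test (adjusted p = 0.0818, 0.116 and 0.078).

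Widely used reference genes did not all pass the test. EEF1A1, the elongation factor, was at 16460 to 18280 and then 18730 to 21710 CPM (0.21, adjusted p = 0.0705), −0.02 under ribosomal scaling. It was called higher under 7 of 18 alternatives, with a lowest adjusted p of 6.29e-06, given by the replicate block on the 6 libraries alone. The actin gene ACTG1 was at 0.10 (adjusted p = 0.403), −0.12 under that scaling, and was called higher under 1 of 18 alternatives. GAPDH was called higher, with 0.24 (adjusted p = 0.0458), 0.01 under ribosomal scaling and an adjusted p of 0.118 without both libraries numbered 1.

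Mitochondrial transcripts come from a separate genome and polymerase. Of 13 messages 8 rose (61.5%) and 2 fell (15.4%), against 13.8% and 17.1% of all genes. Their median was 0.49, and 0.27 under ribosomal scaling, where 3 rose and 3 fell. Their sum went from 865, 769 and 713 CPM to 1292, 1163 and 1225 CPM. MT-CO3, a subunit of cytochrome c oxidase, was at 240, 194 and 176 and then 433, 393 and 418 CPM (1.03, SE 0.10, adjusted p = 2.74e-07, 0.81 under ribosomal scaling). MT-ND4 and MT-CO1, of complexes I and IV, rose by 0.77 and 0.66, and by 0.55 and 0.43 under ribosomal scaling. Of the 2 that fell, MT-ND6 fell deepest, from 7.63, 12.9 and 10.3 to 1.26, 1.62 and 1.46 CPM, 14.1% of the start. The other was among the 12 messages read from the heavy strand and fell by less than 2-fold. MT-ND6 is the sole message read from the light strand, opposite to those 12. Since the strand setting of the counting is unknown, reads of the opposite strand cannot be told apart from its own.

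Nuclear noncoding RNAs went in both directions. MALAT1, of nuclear speckles, was at 615, 580 and 560 CPM and then 958, 896 and 906 CPM (0.65, adjusted p = 0.000649). Under ribosomal scaling it was at 0.43 with an adjusted p of 0.102. NEAT1, of paraspeckles, was called higher by 0.83 with levels of 12.2, 7.81 and 7.79 and then 18.8, 14.3 and 16.4 CPM, but its direction turned to −0.59 (adjusted p = 0.053) once effective length was an offset. MIR17HG, the host transcript of the miR-17 cluster, kept 15.1% (adjusted p = 2.17e-10). Of 20 snoRNA host genes 9 fell (45%) and 2 rose (10%), against 17.1% and 13.8% of all genes. SNHG12 fell to 51.9%, and with effective length as an offset it was at −0.40 with an adjusted p of 0.163. RN7SL1, the RNA of the signal recognition particle, and RN7SK did not pass the test, with 0.06 (adjusted p = 0.832) and −0.08 (adjusted p = 0.68) at levels of 44660 to 49130 and 22560 to 25260 CPM. RN7SL1 turned to −0.17 under ribosomal scaling and to −0.01 with total library size. RN7SK was called lower under 2 of 17 alternatives: ribosomal scaling, where it was at −0.31, and the replicate block on the 6 libraries alone. RNU6ATAC, a minor spliceosomal RNA named after its value was seen, was at 0.883, 1.69 and 1.77 and then 0.195, 0.359 and 0.593 CPM.

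Across 13724 protein-coding genes matched to a GENCODE transcript, the fall was deepest for genes with few exons. The median log2 fold change was −0.43 for 338 genes with 1 exon, −0.35 for 643 with 2 and −0.14 for 843 with 3, while it was 0.05 for 4066 genes with 6 to 10 exons and 0.06 for 3928 with 11 to 20. At least 2-fold falls were called for 24.6% of genes with 1 exon, 20.5% with 2, 13.4% with 3 and 1.03% of genes with 21 or more. Without histone and ZNF genes, those for 1 and 2 exons were 18.8% and 19.3%. These are descriptions, with no test of the classes. Exon number, level and list overlap, and their separate parts were not tested.

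**Figure D4:**
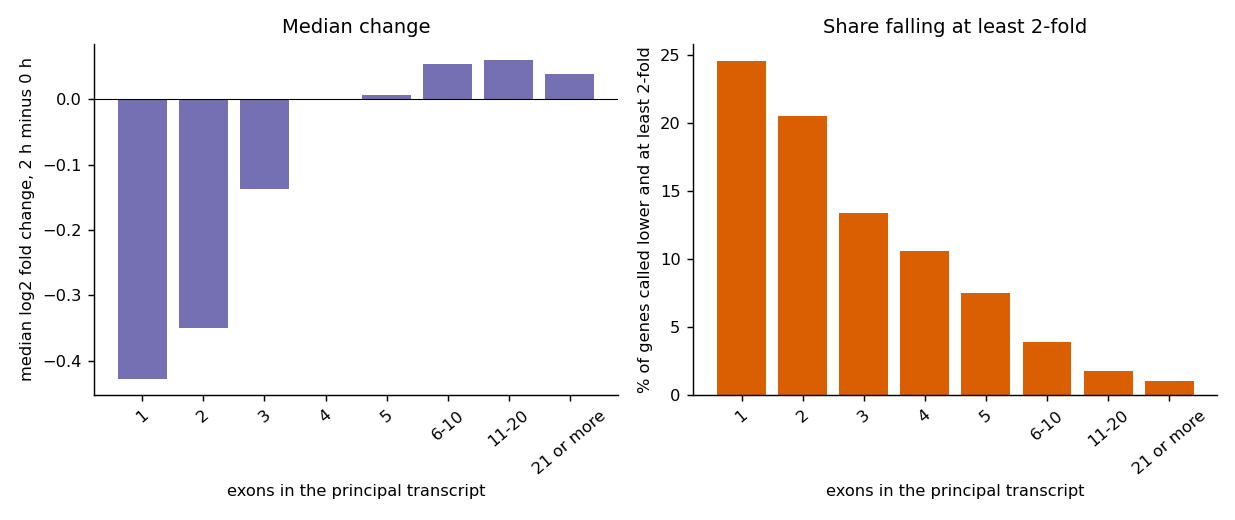
Median log2 fold change from 0 h to 2 h (left, y axis) and percent of genes called lower by at least 2-fold (right, y axis) for protein-coding genes by the number of exons in the principal transcript (x axis). Bars go from −0.43 and 24.6% for 1 exon to 0.04 and 1.03% for 21 or more; under ribosomal scaling the medians of all classes lie below 0.

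AU-rich letters went with more falls, but most genes that held them did not fall. Of the 1126 genes with TTATTTATT in the 3′ UTR 31.0% were called lower, against 17.5% of the 12598 without it. The median was −0.06, against 0.04. By copies, 29.9% of genes with 1, 35.8% with 2 and 33.3% of the 84 with at least 3 were called lower. At least 2-fold falls were called for 8.98%, 9.26% and 17.9% of these, against 5.16% without the nonamer. For the shorter ATTTA, which 9309 genes held, 20.9% were lower against 13.9% without it. In 5 equal classes of 3′ UTR length, from short to long, 36.7, 35.1, 31.9, 36.5 and 27.4% of genes with the nonamer were lower, against 11.2, 14.3, 20.1, 21.5 and 21.9% without it. The gap was smallest in the longest class, which held 588 of the 1126 genes. The letters TGTANATA, the core read by Pumilio proteins, stood in the 3′ UTR of 26.2% of genes. Of those, 25.5% were lower, against 16.2% of the rest. Over all genes in the 5 length classes, 11.5, 14.9, 20.8, 23.0 and 23.1% were lower. ATTTA and TGTANATA were not compared within these classes, so their shares cannot be told apart from those of UTR length. All 3 motifs were searched on the sense strand only, and TTATTTATT contains ATTTA.

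Between 2 and 4 h some of these messages fell further and others did not pass the test. KLF4 fell again, from 8.68 to 9.55 CPM to 3.85 ± 0.228 CPM (SD, n = 3; −1.23, adjusted p = 1.4e-07), and so did DUSP6, to 3.04 ± 0.569 CPM (−1.41), and MCL1, to 58.6 ± 5.19 CPM (−0.97). PPP1R15A was at 7.44 ± 0.376 CPM (−0.04, adjusted p = 0.822), LIF at 3.45 ± 0.252 CPM (0.24, adjusted p = 0.378) and ZC3H12A at 0.988 ± 0.147 CPM (−0.06, adjusted p = 0.877). The last comparison shares its 2 h libraries with that from 0 h.

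Set against LS180 cells over the same 2 h, the change of 973 of 17256 genes (5.64%) differed in the test of the difference. In 905 (5.24%) HCT116 was higher relative to LS180, and in 68 (0.394%) lower. The former count was 343 under ribosomal scaling, 365 without the HCT116 2 h library numbered 2 or 3 and 384 without the LS180 2 h library numbered 2. The latter was 30 under ribosomal scaling, 44 without the LS180 0 h library numbered 3, 45 without the LS180 2 h library numbered 1 and 116 without that numbered 2. CDKN1A showed the widest gap in favour of HCT116 among the genes named here: 76.7% was left, against a log2 fold change of −2.08 in LS180 (difference 1.70, SE 0.19, adjusted p = 1.71e-05). KLF10, FOXA3, PIM3, ZNF57 and DUSP6 also fell less in HCT116, by differences of 1.61, 1.61, 1.56, 1.52 and 1.42. MYC fell by 3.68 on the log2 scale in HCT116 and by 4.94 in LS180 (difference 1.26, adjusted p = 2.14e-05). Going the other way, DKK1 fell by 2.14 in HCT116 and 0.61 in LS180, and ADM by 2.39 and 1.06. DUSP1 had −3.145 in HCT116 and −1.86 in LS180. Of 62 replication-dependent histone genes 15 fell more in HCT116 and 0 fell less, and of 432 ZNF genes 122 fell less and 2 more.

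**Figure D5:**
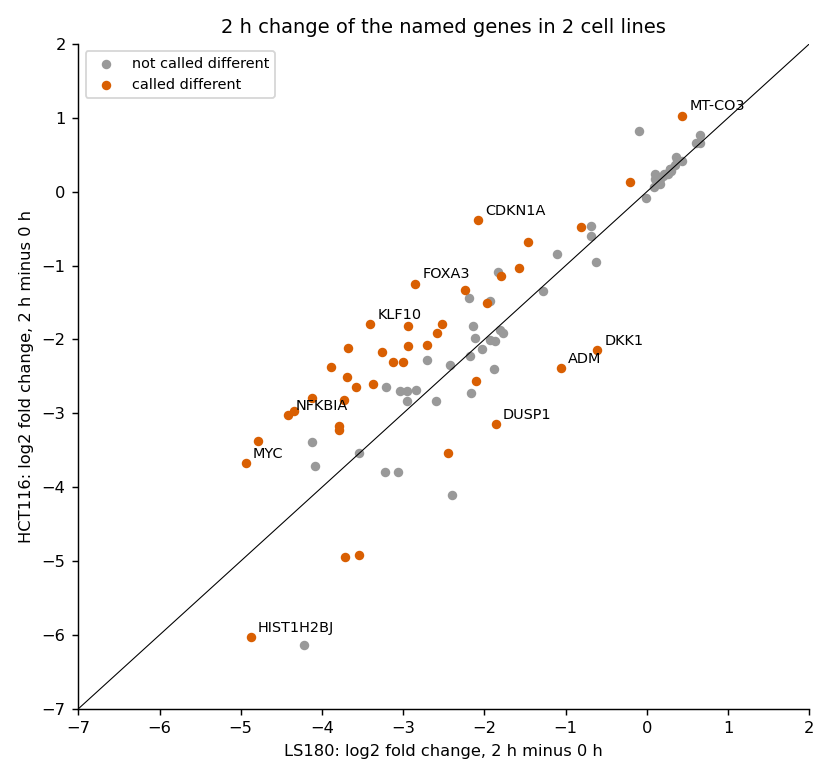
Log2 fold change from 0 h to 2 h in LS180 (x axis) and HCT116 (y axis) for the genes named in the text; each point is a gene, orange where the test of the difference gave an adjusted p under 0.05, and the line marks equal change. MYC, NFKBIA, KLF10, FOXA3 and CDKN1A lie above the line and DUSP1, DKK1, ADM and HIST1H2BJ below it.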

How the data were processed

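Total RNA libraries were made with a stranded total RNA kit, per the labels' protocols. Cutadapt, STAR 2.7, RSEM 1.3.1 and the build hg19 are named for trimming, alignment and quantification, per the submitters' processing notes. Neither annotation release nor strand setting was given in the sources used here. The authors deposited an expected count and a TPM value per gene. Expected counts were rounded to whole numbers. TPM was used only to choose highly expressed genes to name.

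The 18 actinomycin D libraries in 6 groups were fitted together with edgeR 4.0.16 (R 4.3.3), using TMM scaling, a filter on low counts by group, the quasi-likelihood test and Benjamini-Hochberg adjustment over 17256 genes at a threshold of 0.05. CPM is per 1000000 TMM-scaled counts. On simulated data for HCT116 at 2 h against 0 h (17063 genes), 83.6% of genes changed 1.5-fold, 98.5% at 2-fold and 100% at 4-fold were recovered, and 6% of calls were false. Only 200 genes of at least 1 CPM were changed there, up or down at random, in libraries drawn independently. The data hold many more falls, mostly larger than the rises, and libraries that deviate together. The simulation therefore cannot vouch for calls that depend on scaling or on the libraries numbered 1. Members and gene lists were chosen with earlier results of these data known. Named genes were FOXA and Staufen genes, the 15 largest non-overlapping rises and falls with a mean of at least 5 CPM, up to 4 members of each list with the smallest adjusted p and up to 2 against its direction (mean of at least 1 CPM; where fewer than 3 were called, those with the highest level), and the 10 genes of highest TPM; not every gene the rule allows is printed, and some are not reported here. HIST1H2AC, HIST3H2A, RPL14, ITGB1, RNU6ATAC and HIST2H3C were named after their values were seen. Exons and 3′ UTRs came from a single principal transcript per gene in GENCODE release 29 on GRCh38, with 52338 of 57820 gene rows matched. Where several transcripts ranked equally, the longest was used.

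Same-numbered HCT116 libraries deviated together (Pearson's r = 0.741, 0.330 and 0.504 across 8680 genes, which are not independent replicates). Every same-number value was over 0.1, so a replicate block was fitted as an alternative, but library 2 at 0 h was closer to library 3 at 2 h (0.604) than to library 2, and library 3 at 0 h gave 0.451 with library 2. The values set libraries 1 apart and do not match 2 and 3 by number. Other alternatives were DESeq2 1.42.0, other scalings and filters, an effective length offset, and leaving out libraries. With 3 libraries against 3, an exact two-sided permutation test cannot go below p = 0.10.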

Additional observations from a re-analysis of the deposited data

Results flagged for a closer look

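The change over 2 h differed between HCT116 and LS180 in 40 of the 98 named genes tested, by the test of the difference itself in edgeR (adjusted p under 0.05 over 17256 genes, where 5.64% were called). The named genes were chosen largely by their change in the same HCT116 libraries. Their share is therefore not comparable with that over all genes. HCT116 fell more in 8 of the 40, with log2 differences (HCT116 minus LS180) of HIST1H2BJ −1.15, HIST2H2BE −1.23, HIST2H2AC −1.36, HIST3H2A −1.09, IER2 −0.46, DUSP1 −1.28, DKK1 −1.53 and ADM −1.33. In 32 it fell less or rose more. The first of these, by list order, were JUNB 0.91, MAFG 1.13, KLF4 0.81, KLF10 1.61, MYC 1.26, DUSP6 1.42, SPRY4 0.77, PIM3 1.56, NFKBIA 1.39, IRF1 0.63, FOXA3 1.61 and HES1 0.94. Further ones were ELF3 0.91, SOX9 0.53, CDX2 0.79, BAMBI 0.62, BMP4 0.70, SMAD5 0.35, AXIN2 1.18, MCL1 0.65, CDKN1A 1.70, PLK3 0.47, CDKN1B 0.68 and DDIT4 1.38. The rest were ZFP36L2 1.10, CLK1 0.74, BHLHE40 0.85, ZNF627 0.57, ZNF14 1.33, ZNF57 1.52, MT-CO3 0.59 and EIF5 0.33. Of the 40, 19 were called under every alternative run, 21 lost the call under at least 1, and 0 changed direction. BAMBI was called in 4 of 23 alternatives, PLK3 in 5, SOX9 in 8, ZNF627 in 12, MT-CO3 in 13 and HIST1H2BJ in 14, and the other 15 of the 21 in 15 to 22. The cause of these differences was not tested.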

How the results depend on the processing

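The 2957 falls stayed within 1.5 times under every alternative run. The 2389 rises did not: 685 were called with total library size, 33 under ribosomal protein scaling, 1462 with no filter on low counts, 1411 without both HCT116 libraries numbered 1, and 1032 to 2083 when each library was left out in turn. The replicate block gave 3172 higher and 3242 lower, and 3757 and 4108 when fitted on the 6 libraries alone, an alternative chosen after seeing the data. Calls were 44.69% higher in all, 20.42% with total size, 0.8283% under ribosomal scaling, 31.7% with no filter and 28.38% without the 2 h library numbered 3. For the line comparison, the 905 genes higher became 576 with RLE factors, 435 with total size, 343 under ribosomal scaling, 522 at 1 CPM or more, 586 with the effective length offset and 365 to 935 on leaving out single libraries. The 68 genes lower became 116, 35, 30 and 254 under the first 4 of these, 313 with no filter, 193 with DESeq2 and 44 to 116 on leaving out single libraries. Of 71 named falls 69 were called under every setting, and of 22 named rises 3 (MT-CO3, MT-ND4 and MT-CO1). Genes were named largely for a small adjusted p or a large change, so these counts do not stand for all calls. Without both libraries numbered 1, 2283 of the 2957 falls and 1319 of the 2389 rises kept their call. Directions turned under ribosomal scaling for MAX (−0.0603), NFKB1 (−0.0538), STAU1 (−0.10), STAU2 (−0.0587), SMAD5 (−0.08996), ATF6 (−0.0579), RN7SL1 (−0.17), EEF1A1 (−0.0164) and ACTG1 (−0.12), with total size for RN7SL1 (−0.0061) and with the length offset for NEAT1 (−0.59). The causes were not tested.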
